A study of Mus musculus with 4 samples.

Results

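The regions described here are the m6A peaks of mouse liver RNA whose centre the deposited peak table places in an intron of the gene it lists. Membership was decided by that label alone: a peak was taken when every gene-bearing row of it named an intron at its centre, and no measured value entered the choice. This gave 568 of 12815 distinct peaks, or 568 of the 11812 peaks that overlap a gene. They lie on 493 gene identifiers, and 522 of them lie on a protein-coding gene. The table keeps a separate label for the last intron of a gene, which does not meet the rule, and the 132 peaks that carry it are not members.

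The samples were livers of 8-week-old chow-fed mice on the C57BL/6 background. Mettl3 flox/flox mice (flox) carry both Mettl3 alleles flanked by loxP sites and no Cre. HKO mice (Mettl3 flox/flox Alb-Cre) carry the same alleles plus Cre driven by the albumin promoter, which acts in hepatocytes, so the other cells of the liver keep Mettl3. Polyadenylated RNA was fragmented and precipitated with an m6A antibody (IP), and RNA before precipitation (input) was sequenced beside it, which gave 4 libraries, 1 for each genotype and fraction, each made from RNA pooled from several mice. No difference below therefore has a replicate check and no p-value is given. Intervals of single peaks cover read counting only, and those of shares and medians treat the peaks as a sample.

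METTL3 is the catalytic subunit of the nuclear writer complex that methylates adenosine at N6, mostly in the DRACH sequence context (D is A, G or T, R is A or G, H is A, C or T), while the transcript is still on chromatin. In mature mRNA most m6A lies near stop codons and in long internal exons, and introns are removed soon after transcription. Poly(A) selection enriches spliced RNA, so an intron-centred peak in such a library can come from a retained intron, from an exon that the gene model in use does not count, from a gene nested in the intron or from unspliced RNA.

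The sequences that follow come from the peaks with the largest differences for which transcript sequence of the GENCODE M21 annotation (GRCm38) was at hand, 3 with lower and 3 with higher enrichment in HKO. Each is a 25-base window, 5′ to 3′ on the strand of the gene. It surrounds the DRACH match in annotated exon sequence that is nearest the peak centre, and the capitals mark that match. Bases outside annotated exons could not be read, so in Ddx27, where the match lies 108 nt from the centre, a nearer intronic match could not be seen.
Nectin3 chr16:46448623-46448647 (−): attcttacccAGACAgtgtaaaaaa
Sik3 chr9:46202390-46202414 (+): tccctgccacGAACTgtttactgaa
N4bp2l1 chr5:150592168-150592192 (−): ggcaaaccatGGACTcggcccccta
Ddx27 chr2:167033575-167033599 (+): tacaggagttTGACTtggccttaag
Txnrd1 chr10:82860657-82860681 (+): tccggcgctgGGACActgcaggctg
Amy1 chr3:113574712-113574736 (−): atcacagtgcTGACAgaatccatat
The first 3 windows and those of Txnrd1 and Amy1 lie in exons of other annotated transcripts of the same gene, and the Ddx27 window lies in the exon that its peak reaches. A match says that the letters are there and not that the adenosine is methylated.

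Library totals ran from 14972303 to 18365477 reads. The members held 1.30% and 1.39% of the reads of the flox and HKO IP libraries, against 0.578% and 0.574% of the input reads. The median member had 174.5 IP and 52 input reads in flox, and 192 IP and 72 input reads in HKO. In narrow members of up to 200 nt, 73.9% to 78.9% of the counts above 0 were even numbers, as when both mates of a pair are counted, and a counting interval then comes out too narrow. The table holds no peak on Mettl3, so the deletion was not checked here. Peaks were present on 9 of 10 hepatocyte markers, whose summed input was 12853 RPM (reads scaled to a common library size) in flox and 11746 in HKO. The summed input at 5 of 6 Kupffer cell and macrophage markers was 260.5 RPM in flox and 435 in HKO. It was 99.9 and 70.5 RPM at 4 of 5 endothelial markers, 10.8 and 19.2 at 2 of 5 stellate markers, and 13.02 and 35.6 at 2 of 5 bile duct (cholangiocyte) markers. The part of these shifts in the results below was not tested. Every peak of the table has an enrichment above 1 in both genotypes, so sites at or below their input level in either genotype are not among those described.

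Enrichment is IP RPM over input RPM, with 1 added to each count, and the change is the log2 ratio of HKO to flox enrichment. A peak was called lower or higher when its enrichment differed at least 2-fold. Over all peaks, 24.3% were lower and 6.25% were higher. Among the intron-centred peaks 68 were lower (11.97%, exact 95% interval 9.42 to 14.9) and 67 were higher (11.8%, 9.26 to 14.7). The near balance of lower and higher members depends on the scaling and the fold: with the summed reads of all peaks as library totals 10.04% were lower and 22.2% higher, and at 1.5-fold 18.7% and 31.0%. The median change was 0.32 on the log2 scale (order-statistic 95% interval 0.27 to 0.37), against -0.04 (-0.07 to -0.01) over all peaks. A change above 0 was seen in 385 members (67.8%), against 48.9% of all peaks. Median enrichment of the members was 2.46 in flox and 2.70 in HKO, whereas over all peaks it was 2.84 and 2.31. Scaling to summed peak reads adds 0.27 to every log2 change, which turns the medians of all peaks and of the no-exon peaks described below from just under 0 to above it and leaves differences between sets as they are. The counting interval lay below 0 for 60 of the 68 lower members and for 49 if reads are taken as pairs. It lay above 0 for 59 of the 67 higher members and for 41 if reads are taken as pairs.

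**Figure D1:**
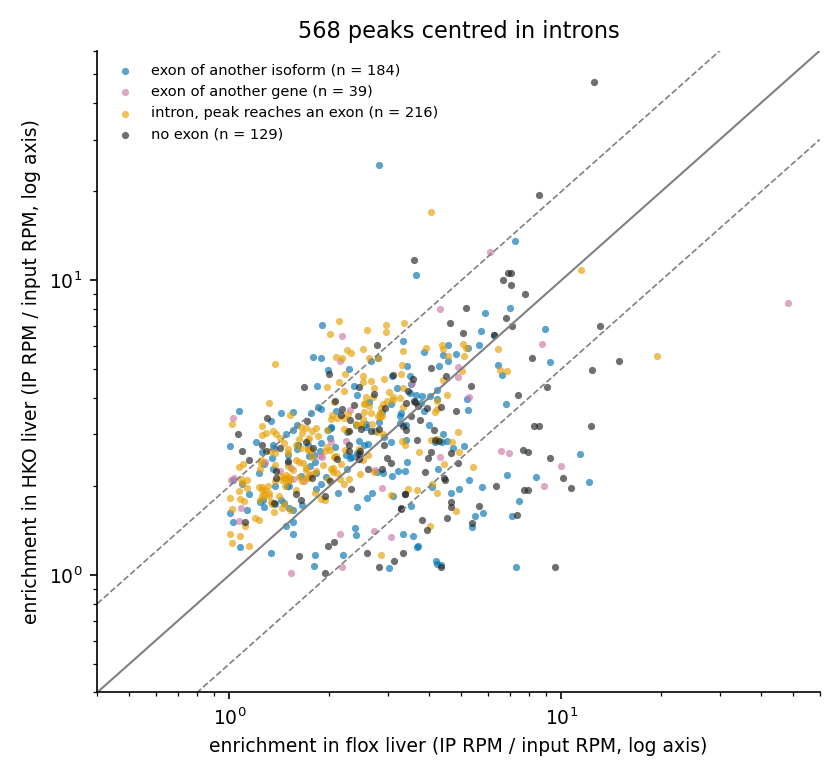
Enrichment of the 568 intron-centred peaks in flox (x axis) and HKO (y axis), both as IP RPM over input RPM on log axes, coloured by what the annotation places at the peak. The solid line is equality and the dashed lines mark a 2-fold difference; 68 peaks lie on or below the lower dashed line, 67 on or above the upper one, and no peak is below 1 on either axis.

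In median change the members were close to peaks centred in internal exons and in the 5′ UTR or first exon. They were far from those in the 3′ UTR. Of the members, 247 (43.5%) lay within 1000 nt of an annotated transcript start. Of 1891 peaks centred in the 5′ UTR or first exon 6.61% were lower, with a median change of 0.38 (0.36 to 0.41). Of 2972 peaks centred in internal exons 12.95% were lower, with a median change of 0.31 (0.28 to 0.34). Of 2574 peaks in the 3′ UTR 40.8% were lower, with a median of -0.78 (-0.83 to -0.73). In the authors' calls, 258 members (45.4%) were in HKO alone, 112 (19.7%) in flox alone and 198 (34.9%) in both. Over all peaks these shares were 31.3%, 22.5% and 46.2%. Calls in HKO alone made up 45.4% of the internal-exon peaks and 46.9% of those in the 5′ UTR or first exon. The calls come from the same libraries as the changes, so they are not separate support. Median changes were 0.56 for members called in HKO alone and -0.96 for those called in flox alone. Members called in HKO alone had a median enrichment of 1.77 in flox and 2.76 in HKO. Since every peak of the table is above 1 in both genotypes, a flox median above 1 was given in advance. Members with at least the median IP reads of all peaks (456 reads over both genotypes) numbered 247, of which 21 were lower and 12 higher. Their median change was 0.33, against -0.20 over all peaks of that strength, of which 27.8% were lower and 1.497% higher.

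The intron label was then checked against the GENCODE M21 annotation, in which all 493 gene identifiers were found. Of the 568 members, 184 had their centre in an exon of another transcript of the listed gene, and for 41 of these the transcripts were all annotated as retained-intron forms. A further 39 had their centre in an exon of another gene, on the same strand as the listed gene in 16 cases and on the opposite strand alone in 23. In 216 the centre lay in an intron of every transcript but the peak reached an exon, and the intron was short (median 164 nt) with the centre a median of 27 nt from the nearest exon. That left 129 members (22.7%) that touched no annotated exon, in introns with a median length of 7570 nt.

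These classes differed in the direction of change. Among the 216 peaks that reached an exon 6 were lower (2.78%, 1.03 to 5.95) and 28 were higher (13.0%, 8.79 to 18.2), and the median change was 0.48 (0.41 to 0.55). Among the 129 that touched no exon 31 were lower (24.03%, 17.0 to 32.3) and 12 were higher (9.30%, 4.90 to 15.7), with a median of -0.03 (-0.33 to 0.14). The share of lower peaks in the no-exon class was therefore near the 24.3% of the whole table, and its higher share was near 6.25% within its interval. Lower calls in the no-exon class rested on few reads: with reads taken as pairs 18 of the 31 kept an interval below 0, and of the 53 no-exon peaks with at least 456 IP reads 6 were lower and 4 higher. The 184 peaks in another isoform's exon had a median of 0.20 (0.10 to 0.32), with 24 lower and 21 higher. The 39 in another gene's exon had 7 lower and 6 higher.

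**Figure D2:**
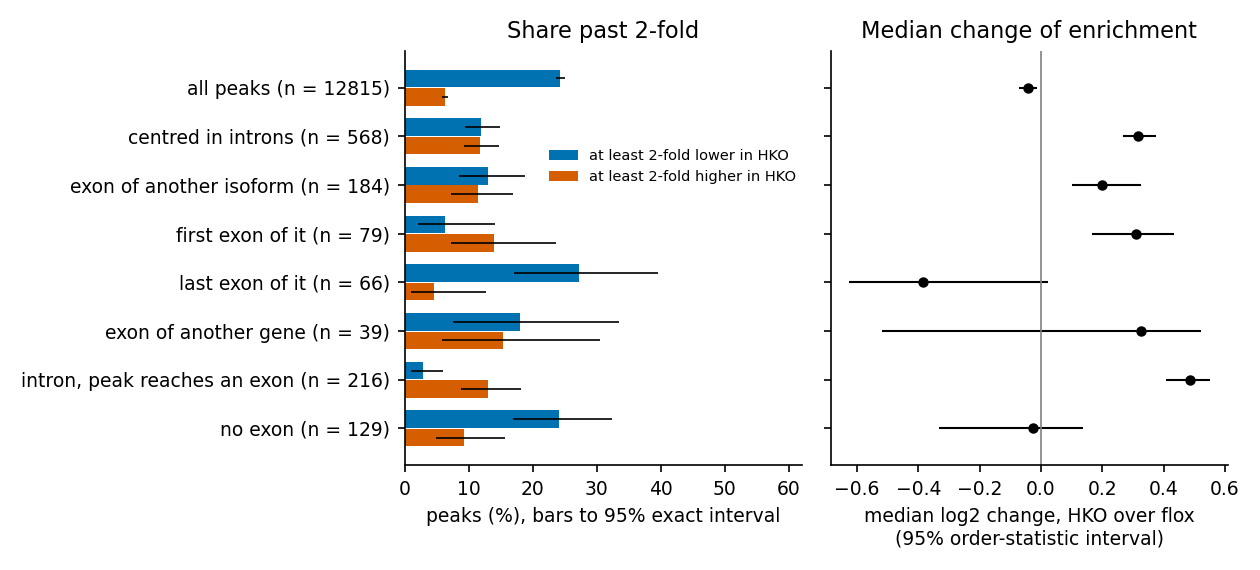
Left, percent of peaks at least 2-fold lower (blue) or higher (orange) in HKO for all peaks, the intron-centred peaks and their classes, with exact 95% intervals as lines. Right, the median log2 change of enrichment with its order-statistic 95% interval; the lowest median is that of peaks in another isoform's last exon (-0.38) and the highest that of peaks reaching an exon (0.48).

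The other-isoform class split further by which exon of the other transcript held the centre. In 66 peaks it was only a last exon, where 18 were lower (27.3%, 17.0 to 39.6) and 3 higher (4.55%, 0.95 to 12.7), and the median change was -0.38 (-0.63 to 0.02). These shares were near the 24.3% and 6.25% of all peaks, and the falls described below are examples. Some of these last exons belong only to non-coding processed transcripts or retained-intron forms. In 79 it was only a first exon, where 5 were lower (6.33%, 2.09 to 14.2) and 11 higher, and the median change was 0.31 (0.16 to 0.43). All 18 lower peaks in last exons kept an interval below 0 with reads taken as pairs. Calls in flox alone made up 45.5% of the last-exon peaks, 38.0% of the no-exon peaks, 12.7% of the first-exon peaks and 4.63% of the peaks that reached an exon.

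**Figure D3:**
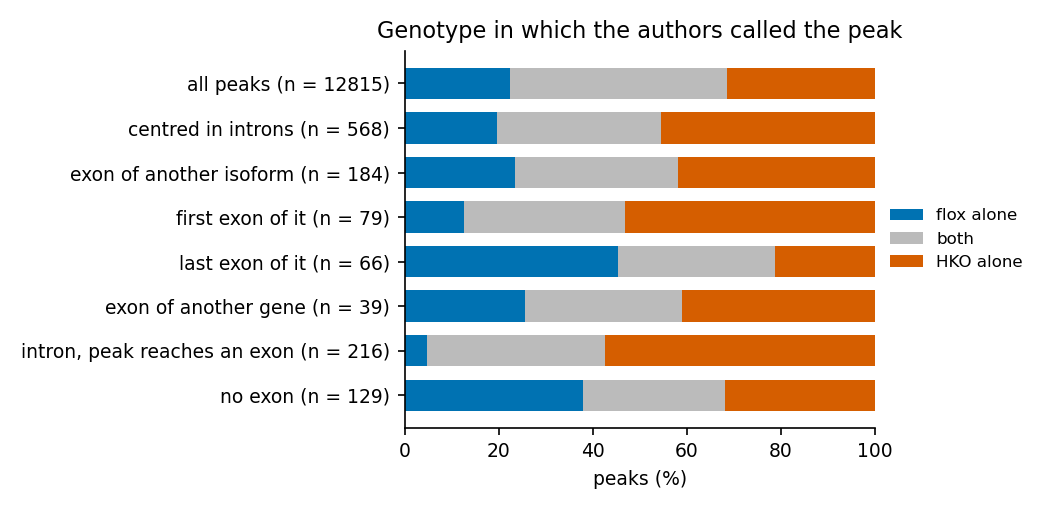
Percent of peaks that the authors called in flox alone (blue), in both genotypes (grey) or in HKO alone (orange), for all peaks, the intron-centred peaks and their classes. Calls in HKO alone make up 57.4% of the peaks that reach an exon and calls in flox alone 45.5% of those in another isoform's last exon.

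The largest falls among the well-covered members ranged from -2.06 to -1.45, and 6 of the 10 named had their centre in another isoform's last exon. Nectin3, which encodes an immunoglobulin-like adhesion molecule, had a peak labelled intron 5 (chr16:46448337-46448933, GRCm38) with 2054 IP and 231 input reads in flox, and 550 IP and 328 input reads in HKO. IP reads fell while input reads did not, and enrichment went from 7.46 to 1.78, a log2 change of -2.06 (counting interval -2.34 to -1.79). Its relative Nectin2 had a peak labelled intron 5 as well (chr7:19724122-19724771) with 1651, 241, 776 and 416 reads in the same order of libraries, which is kept below. Enrichment there was 5.75 in flox and 1.99 in HKO, a change of -1.53 (-1.79 to -1.27). Both sites lay in alternative last exons and both were called in flox and HKO.

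Sik3, which encodes a salt-inducible kinase, had 390, 75, 110 and 108 reads at intron 14 (chr9:46202169-46202608). Its enrichment was 4.33 in flox and 1.09 in HKO, a change of -1.997 (-2.52 to -1.48), so the HKO library was near its own input. Dnajb6, an HSP40 co-chaperone gene, had 370, 102, 174 and 175 reads at intron 8, and its enrichment of 3.03 in flox was 1.06 in HKO (-1.52, -1.95 to -1.08). Dexi had 760, 173, 210 and 180 reads at intron 1, with a change of -1.57 (-1.94 to -1.20). In these peaks the 2 input libraries stayed within 1.5-fold of each other in RPM, and the difference was in the IP libraries.

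N4bp2l1 was different, since its RNA was lower too. Its intron 1 peak (chr5:150591970-150592304) had 1073 IP and 215 input reads in flox against 83 and 79 in HKO, a log2 input change of -1.73 beside an enrichment change of -1.90 (-2.39 to -1.41). Son, which encodes a scaffold of nuclear speckles and was named through the list of genes with detained or retained introns, had 327, 38, 97 and 65 reads at intron 4 (chr16:91662513-91662813), again in another isoform's last exon. Its enrichment was 7.08 in flox and 1.58 in HKO, a change of -2.16 (-2.82 to -1.50). Per1, a core clock gene, had 151, 40, 46 and 26 reads at intron 18 in a last exon of another isoform, with a change of -0.75 (-1.60 to 0.09).

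All 18 lower peaks in last exons had lower IP RPM in HKO, 12 had higher input RPM and 15 were called in flox alone. Over all 68 lower members the same counts were 62, 35 and 54. Choosing peaks with lower enrichment in HKO itself favours these counts. The 11 lower last-exon peaks not yet named had fewer reads, apart from Arl4a, described with the strongest peaks. Nsd3, a histone methyltransferase gene, had 344, 53, 103 and 75 reads at intron 9 and a change of -1.88. Kif1b, a kinesin gene, had 186, 12, 59 and 30 reads at intron 22 and a change of -2.55. Zfp64, a zinc finger gene, had 208, 20, 80 and 39 reads at intron 5 (-1.96), and Rprd2, a gene for a protein that binds the tail of RNA polymerase II, had 178, 25, 69 and 45 at intron 9 (-1.84). Trappc13, Safb2, Pde4dip, Prkd3, Gm28557 and Slc16a10 were also lower, by changes from -1.27 (Pde4dip) to -2.78 (Slc16a10), and Slc16a10, a transporter of aromatic amino acids, had 4 reads in each HKO library. These were named after their values were seen.

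Not every peak in an alternative last exon was lower. The strongest ones by IP reads, chosen after their values were seen, showed this. Cp, which encodes the copper-carrying plasma protein ceruloplasmin, had 9709, 3852, 8739 and 4888 reads at intron 18, a change of -0.16 (-0.23 to -0.08). Masp1, which encodes proteases of the lectin pathway of complement from alternative ends, had 2 such peaks in intron 10, with changes of 0.24 (0.06 to 0.43) and 0.18 (-0.06 to 0.42). Il1rap, the accessory subunit of the interleukin-1 receptor, had 4252, 1235, 1157 and 553 reads at intron 8. Its input was lower in HKO (-1.45 on the log2 scale) and its enrichment changed by -0.38 (-0.55 to -0.21). Arl4a, a small GTPase gene, had 3593, 616, 1459 and 794 reads at intron 2 and a change of -1.33 (-1.50 to -1.15). Psmc3, described with the rises, and Pnn, a splicing-associated gene, were higher in last exons of other isoforms (1.07 and 1.01). The Psmc3 transcript is annotated as a non-coding processed transcript and that of Pnn as a retained-intron form. Peaks in last exons thus ran from falls to rises past 2-fold.

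Peaks that touched no annotated exon gave 3 of the 10 named falls. Marc1, which encodes a molybdenum enzyme of the mitochondrial outer membrane, had 1106 IP and 120 input reads in flox and 221 and 121 in HKO, in intron 6 (chr1:184798811-184799421), 2786 nt from the nearest exon. Its enrichment was 7.70 in flox and 1.94 in HKO, a change of -1.99 (-2.41 to -1.57), with near-equal input reads. Apol9b, of the apolipoprotein L family, had 391, 70, 87 and 54 reads in intron 1 and a change of -1.45 (-2.05 to -0.84). Uhrf1bp1l had 117, 12, 340 and 136 reads in intron 19 and was called in HKO alone. Its IP RPM was higher in HKO (1.58 on the log2 scale), its input RPM more so (3.10), and its enrichment change of -1.53 (-2.40 to -0.65) rests on 12 input reads in flox. The remaining named fall was Adh7, an alcohol dehydrogenase gene that acts on retinol, with 987, 172, 211 and 136 reads at intron 1 in a peak that reaches an exon and a change of -1.54 (-1.93 to -1.16).

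**Figure D4:**
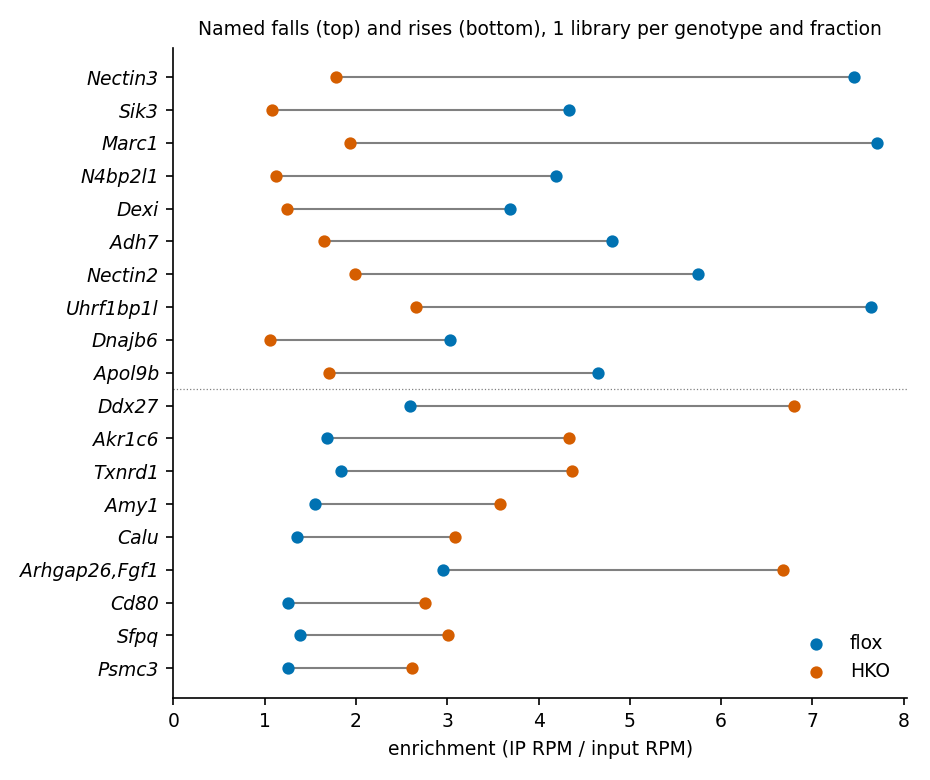
Enrichment (IP RPM over input RPM) in flox (blue) and HKO (orange) for the named falls above the dotted line and the named rises below it, 1 peak per gene, joined by a line. Flox is higher in each fall, from Nectin3 (7.46 against 1.78) to Apol9b, and HKO is higher in each rise; Sult2a8, with 0 input reads in HKO, is not drawn.

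The named rises were smaller and 4 of the 10 were peaks that reach an exon, 3 of them at a short intron. Ddx27, which encodes an RNA helicase of ribosome biogenesis, had 199 IP and 64 input reads in flox and 337 and 52 in HKO at intron 17 (chr2:167033466-167033924), an intron of 76 nt. Enrichment was 2.59 in flox and 6.80 in HKO, a change of 1.39 (0.81 to 1.97). Calu, an endoplasmic reticulum calcium-binding protein gene, had 152, 94, 442 and 152 reads at intron 3 (72 nt), a change of 1.19 (0.73 to 1.64). Sfpq, a splicing factor gene, had 214, 130, 476 and 168 reads at intron 5 (91 nt) and a change of 1.12 (0.72 to 1.53). A peak shared by Arhgap26, a GTPase activator gene, and Fgf1, a growth factor gene, had 259, 73, 331 and 52 reads and a change of 1.17 (0.61 to 1.73).

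Of the other rises, 3 were in an exon of another isoform. Txnrd1, the cytosolic thioredoxin reductase gene, had 158, 72, 372 and 90 reads at intron 1 (chr10:82860412-82860715) and a change of 1.25 (0.73 to 1.77). Amy1, an amylase gene with alternative first exons, had 340, 184, 278 and 82 reads at intron 1 and a change of 1.21 (0.77 to 1.64). There IP reads fell as well, and the input RPM fell more (-1.45 on the log2 scale). Psmc3, a proteasome ATPase gene, had 464, 312, 660 and 268 reads and a change of 1.07 (0.78 to 1.36).

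The last 3 named rises touched no exon. Akr1c6, an aldo-keto reductase gene of steroid metabolism, had 21, 10, 556 and 136 reads in intron 3 (chr13:4442956-4443260), and its change of 1.36 (0.29 to 2.44) stood beside an input change of 3.34. A second Akr1c6 peak in the same intron had 106, 24, 1178 and 322 reads, an input change of 3.397 and an enrichment change of 0.11 (-0.54 to 0.76). RNA was thus higher in HKO at both peaks, and the intervals of their enrichment changes overlap. Cd80, which encodes a T cell costimulatory ligand, had 75, 50, 441 and 170 reads in intron 3 and a change of 1.13 (0.56 to 1.71). Sult2a8, a hepatic sulfotransferase gene, had 565 IP and 37 input reads in flox and 43 IP and 0 input reads in HKO, so no fold is given. Its IP RPM was lower in HKO (-3.64 on the log2 scale). It ranks among the rises only through the 1 added to its input count of 0, so its direction is not known.

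Among members with at least 456 IP reads, 5 of the 6 with the highest enrichment over both genotypes touched no exon. Sult2a8 came first on 0 input reads in HKO, and Abcc2 is described with its other peaks. Atp8a2, a lipid flippase gene, had an enrichment of 13.1 in flox and 7.01 in HKO in intron 5, a change of -0.90 (-1.76 to -0.03) on 17 and 32 input reads. Tat, the gene of tyrosine aminotransferase and a hepatocyte enzyme of amino acid breakdown, had 1367, 147, 1266 and 149 reads in intron 4 (chr8:109993382-109993575), with enrichments of 7.78 and 9.002 and a change of 0.21 (-0.14 to 0.56). Gm11747, a predicted gene, had 1059, 133, 1163 and 123 reads and a change of 0.59 (0.21 to 0.96). The peak labelled intron 41 of Tg, the thyroglobulin gene, lay in an exon of Sla, an adaptor gene on the opposite strand inside that intron, and had enrichments of 6.10 and 12.4 with a change of 1.03 (0.33 to 1.73). Since they were chosen for enrichment over both genotypes, their level in HKO is a description.

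Most of the 493 genes had 1 intron-centred peak (424), 69 had 2 or more and 5 had 4 or more. Cep85, a centrosomal protein gene, had 5 in intron 3 between 134160751 and 134164287 of chromosome 4, 4 of them touching no exon. From the lowest coordinate up the changes were 0.37, 0.05, -0.66, -0.93 and -0.17. The third had 11491 IP and 4886 input reads in flox and 6761 and 5736 in HKO, with a counting interval of -0.73 to -0.59, and the fourth went from an enrichment of 1.94 to 1.01. Neighbouring peaks of 1 intron therefore differed in direction by more than their counting intervals. Cars, the cysteinyl-tRNA synthetase gene, had 5 narrow peaks that each reach an exon, all called in HKO alone, with 22 to 80 reads in flox IP and changes from 0.18 to 1.25.

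Abcc2, the canalicular exporter of conjugated bilirubin, had 4 peaks with no exon in introns 1, 2 and 25, and their changes were 0.45, 0.43, 0.09 and 0.62. AC132320.1 had 5 in intron 1 of a gene model on chromosome 18. Gm20388 had 9, but this is a read-through model whose intron 1 spans 4384420 nt, and its peaks lay in or beside other genes, among them Usp10, Irf8, Zc3h18 and Ankrd11. The number for Gm20388 is thus a count over many genes.

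Some peaks in another gene's exon lay where that gene is nested in the labelled intron or overlaps it, and in the examples here it is on the opposite strand. Within Ydjc, 2 peaks lay in exons of Ube2l3, a ubiquitin-conjugating enzyme gene, with changes of -1.42 (-1.81 to -1.04) and 0.52 (0.18 to 0.86). A peak in intron 1 of Lamb3 lay in an exon of Hsd11b1, the hepatic enzyme that regenerates active glucocorticoid, with 1278, 990, 1974 and 1250 reads and a change of 0.63 (0.47 to 0.79). These nested peaks were chosen after their values were seen, and the sources used here do not say whether the reads kept their strand.

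The peaks that reach an exon were more uniform in direction, as 179 of 216 (82.9%) had a change above 0. That share was 48.9% over all peaks, 63.9% in internal exons and 74.9% in the 5′ UTR or first exon. Of this class 57.4% were called in HKO alone and 4.63% in flox alone, which favours changes above 0. C3, the central complement component, had 8748, 5586, 11492 and 6454 reads at intron 14 (177 nt), with enrichments of 1.32 and 1.90 and a change of 0.53 (0.46 to 0.59). Os9, a lectin of endoplasmic reticulum quality control, had 3 such peaks with changes of 0.94, 0.31 and 0.56, and Myh9, a non-muscle myosin heavy chain gene, had 3 with changes of 0.38, 0.53 and 0.44. Cyp2c50, a cytochrome P450 gene, had 2545, 1711, 1055 and 563 reads at intron 2, so that its input was lower in HKO (-1.90 on the log2 scale) and its enrichment higher (0.67, 0.50 to 0.84). Os9 and Myh9 were chosen after their values were seen.

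Distance from a transcript start sorted the members less than it sorted the table. Within 100 nt of an annotated start the 92 members had a median change of 0.43 (0.26 to 0.60) and all peaks 0.44 (0.42 to 0.47). Between 1000 and 5000 nt the 158 members had 0.35 (0.27 to 0.43) and all peaks -0.40 (-0.46 to -0.33). Beyond 5000 nt the 163 members had 0.07 (-0.11 to 0.20), with 20.9% lower, and all peaks had -0.53 (-0.59 to -0.48), with 34.2% lower. In the same range the 72 members that touch no exon had -0.27 (-0.67 to 0.08), with 27.8% lower. Intron 1 held 161 members (28.3%), with a median of 0.22, and later introns held 407, with a median of 0.34.

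**Figure D5:**
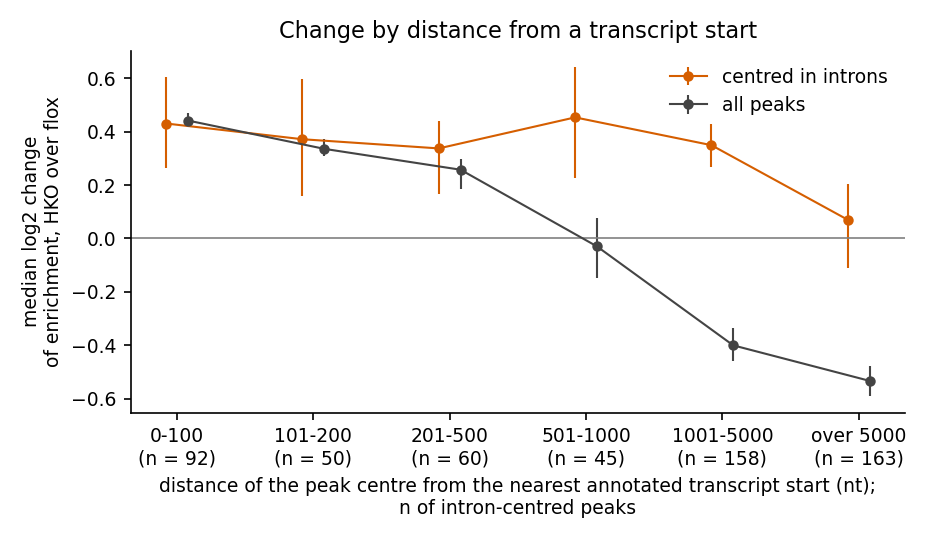
Median log2 change of enrichment, HKO over flox, by distance of the peak centre from the nearest annotated transcript start in nt, for intron-centred peaks (orange, number below each bin) and all peaks (grey), with order-statistic 95% intervals. The sets lie together within 100 nt (0.43 and 0.44) and apart beyond 5000 nt (0.07 and -0.53).

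Other peaks of the same gene allow a comparison within a gene, though not always on the same transcript, for 414 members of 344 genes that have such peaks. The member's change was above the median change of the gene's other peaks in 233 of 414 (56.3%), and the median difference was 0.11 (0.03 to 0.22). It was 0.37 (0.07 to 0.85) for the 60 members in another isoform's first exon, -0.01 (-0.46 to 0.27) for the 50 in another isoform's last exon, 0.22 (0.08 to 0.37) for the 170 that reach an exon and -0.16 (-0.43 to 0.10) for the 85 that touch no exon. Input read density per nt in flox at the member was a median of 0.632 times that at the other peaks, and 0.348 times for no-exon members, and it was lower in 307 of the 414. The input change at the member and at the other peaks of its gene had a Pearson correlation of 0.479 and a Spearman correlation of 0.445 over these 414 members, which share the same 4 libraries.

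The input libraries show the RNA itself. The median input change over members was 0.07 (0.02 to 0.17), below the 0.22 (0.21 to 0.24) over all peaks. Of the members, 67 were at least 2-fold lower in HKO and 81 at least 2-fold higher. The share of all peaks past 2-fold in input is not given here, so these counts do not set the members apart. In bulk liver, fewer cells of a type and less RNA per cell cannot be told apart. For no-exon members the median was -0.20 (-0.35 to 0.05), with 34 of 129 at least 2-fold lower and 21 at least 2-fold higher, against 6 and 30 of the 216 peaks that reach an exon. The 3 peaks in intron 2 of AC169509.1, chosen after their values were seen, had input changes of -2.95, -2.27 and -2.23, and Adh7 had -2.88 and -2.94 at its 2 peaks in intron 5. These are peaks called in flox alone whose RNA was scarce in HKO, with enrichment changes between -0.85 and -0.27.

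Of 15 gene lists, 6 held an intron-centred peak, 16 peaks on 13 genes in all. The list of genes with detained or retained introns had 4 of its 22 genes, with Son lower, Luc7l2, a component of the U1 snRNP, higher (1.03, 0.40 to 1.67) and Hnrnpdl, an RNA-binding protein gene, at 0.50 (0.12 to 0.88). Ccnl1, a cyclin gene, was at 0.40 (-0.03 to 0.82). Among SR protein genes with poison exons, 7 of 12 had any peak and 1 had an intron-centred one, Srsf11 (77, 63, 141 and 71 reads), which was higher (1.03, 0.41 to 1.66). Hepatocyte secreted proteins had C3 and Serpinc1, the antithrombin gene, whose 2 peaks had changes of -0.84 (-1.93 to 0.25) and 0.27 (-0.87 to 1.41), and hepatocyte transcription factors included Nr1h4, the bile acid receptor FXR, with 2 peaks (0.58, -0.51 to 1.67, and 0.19, -0.35 to 0.73). Xenobiotic metabolism had Sult2a8, Cyp2c50 and Cyp3a13 (-0.58, -1.42 to 0.25), and the clock list had Per1. No intron-centred peak lay on the genes for m6A writers, readers and erasers, noncoding and imprinted RNAs, fatty acid oxidation, lipogenesis or insulin signalling. The markers of Kupffer, endothelial, stellate and bile duct cells had none either. Peaks elsewhere were present on 14 of 21 m6A genes (32 peaks) and 18 of 19 insulin signalling genes (39 peaks). Intron-centred peaks were 568 of all 12815 distinct peaks, so their absence from lists with so few peaks does not set these genes apart.

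Sequence could be read for the 178 members (31.3%) whose peak is covered to at least 80% by annotated transcripts, which leaves out nearly all true intron sequence, so the shares hold for that subset alone. The letters GGACT on the gene's strand were in 61 of the 178 (34.3%, 27.3 to 41.7), against 44.5% of the 8367 peaks of the table covered in the same way. Members with GGACT had a median change of -0.51, with 20 of 61 lower (32.8%), and members without it 0.34, with 9 of 117 lower (7.69%). Over the table the medians were -0.84 with the letters and 0.02 without, with 42.7% and 20.8% lower. GGACT was in 24 of 63 peaks in last exons (38.1%) and in 13 of 46 in first exons (28.3%). The polyadenylation signal AATAAA was in 33.3% of those last-exon peaks and in 14.4% of the 8367 covered peaks. The last-exon peaks were also wider (median 347 against 315 nt) and lower in GC (median 48.8% against 52.3%). As for the sequences printed above, Sik3 and N4bp2l1 each hold 1 GGACT in the peak, and Nectin3 holds 12 DRACH matches and no GGACT.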

How the data were processed

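The table used here lists peaks merged over both genotypes, with 14395 rows reduced to 12815 distinct peaks. The read counts per peak are raw, as deposited. The authors' RPM values are the count plus 1, scaled by the library total. The authors' fold enrichment divides IP by input RPM, and this ratio was computed again from the counts and the library totals (largest difference 0.000839%). The log2 change deposited by the authors was not used. The submitters' processing notes name BWA 0.7.12-r1039, MACS2 2.1.0, HOMER and GRCm38, while the study's methods name exomePeak. Per-sample columns not used numbered 0.

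Members were taken from the table's centre label. Places, transcript starts and sequences came from GENCODE M21 (GRCm38). In 11 genes the table holds a date as symbol, replaced through the gene identifier. With 1 library per group no test was run: a peak was called by a 2-fold difference, with exact (Clopper-Pearson) intervals for shares, order-statistic intervals for medians and 95% counting intervals from counts plus 1. A count of 0 allows 3 reads. The calculation was tested on simulated independent counts, scored only at peaks well covered in every library. Counts that come in pairs and thinly covered members were not tested in that way. The members and gene lists were chosen with earlier results of these data known. Named peaks were the 10 largest falls and 10 largest rises among members with at least 456 IP reads (1 per gene, no predicted genes), the 6 with the highest enrichment at the same minimum, up to 3 per gene list and genes with 4 or more members, and some of them are not reported here. Alternatives were other folds, pseudocounts, totals, read minimums, memberships and motif windows; adding last-intron peaks and taking 1 peak per gene were chosen after seeing the data. Analyses used pandas 2.3.3, scipy 1.17.1, numpy 2.4.6 and matplotlib 3.10.9 under Python 3.11.15.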

Additional observations from a re-analysis of the deposited data

How the results depend on the processing

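Of 52 alternatives to 11 results, 28 stayed within the interval of the reported value. The share of lower members was 8.50% with only well-covered peaks, 9.11% with at least 20 input reads in each genotype, 24.03% for peaks touching no exon, 17.4% without peaks within 1000 nt of a transcript start, 18.7% at 1.5-fold and 5.28% at 3-fold. The share of higher members was 4.86% with only well-covered peaks, 9.11% with at least 20 input reads, 22.2% with summed peak reads as library totals, 31.0% at 1.5-fold and 2.11% at 3-fold. Those totals move every log2 change by 0.27, so the median became 0.59, and directions near 0 depend on them. The median was -0.027 for peaks touching no exon and 0.24 without peaks near a start, and the median input change was -0.20 for peaks touching no exon. Well-covered peaks were called in flox alone in 11.7%, in HKO alone in 24.7% and in both in 63.6%, and peaks away from starts in 28.7%, 41.1% and 30.2%. The GGACT share was 25.3% in the middle of the peak, 52.2% on both strands and 96.6% with DRACH. Leaving out a library was not possible with 1 per group, and GGACT in members outside annotated exons was not run because no genome sequence was used here. No paired analysis was possible because each group has 1 library. In 129 members an input had under 20 reads, which limits their change.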

Other observations

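The 132 peaks that the table labels as centred in a last intron, in some or all of their rows, were nearer to the table as a whole than the members were. Of these 26 were at least 2-fold lower in HKO (19.7%, exact 95% interval 13.3 to 27.5) and 10 were higher (7.58%, 3.69 to 13.5). Their median change was -0.14 (-0.39 to 0.18), with a median enrichment of 2.86 in flox and 2.57 in HKO, and 23.5% were called in flox alone and 30.3% in HKO alone.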
